A study of Mus musculus with 10 samples.

Results

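The copines are a family of calcium-dependent phospholipid-binding proteins, and the 9 mouse genes Cpne1 to Cpne9 were all found by symbol among the 23337 genes of the right atrial table. The family was chosen on the fall of Cpne5 in mice labelled Tbx5 mutant, and the other 8 genes came in by name. A copine carries a pair of C2 domains, which bind membranes when calcium rises, followed by a copine domain related to the von Willebrand factor A domain, which binds other proteins. Some of the proteins have been described to move from the cytosol to membranes when calcium enters the cell. That property is of interest in atrial muscle, where each beat is a calcium cycle. Members differ in where they are made. Cpne1 and Cpne3 are broadly expressed, Cpne6 is known from neurons, and Cpne5 has been described in the cardiac conduction system and in brain.

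RNA of the right atrium was sequenced from 10 adult mice, 4 labelled control (M1, M2, F1 and F2) and 6 labelled Tbx5 mutant (F1 to F3 and M1 to M3), to ask which genes change after loss of the T-box transcription factor Tbx5. In the mutant mice a Cre recombinase that tamoxifen activates, driven by the ubiquitous R26 promoter, removes exon 3 of Tbx5 in every cell type that it reaches. The genotype of the control mice is given only as control for these libraries. In the study's methods for other tissue, controls carry the Cre without floxed Tbx5. The labels describe tamoxifen at 0.167 mg per day for 3 days and death 1 week later for all samples, a mixed strain, and an age of 8 to 10 weeks in one field and 6 to 8 weeks in another. Library preparation is described both as an mRNA kit and as total RNA depleted of ribosomal RNA.

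Several libraries go against their labels or stand apart. Total counts ran from 5811516 to 7095141 in control and from 5703775 to 6816253 in Tbx5 mutant mice. The ribosomal precursor Rn45s took 38.9% of the counts in mutant M3 and at most 1.49% in any other library, so M3 has the lowest depth for the copines. Adipocyte genes summed to 20.8 CPM (reads relative to the TMM-scaled size of each library) in mutant M2 and to at most 4.13 CPM elsewhere. Reads of Xist numbered 7850 to 10149 in the 2 control mice labelled male and 5 to 14 in the 2 labelled female, and reads of the Y-linked gene Ddx3y were 0 in the former and 1124 to 1319 in the latter. The reads of the mutant mice followed their sex labels. Tbx5 itself, counted over the whole gene so that loss of exon 3 is not seen, was at 205 ± 17.8 CPM (SD, n = 4) in mice labelled control and higher, at 393 ± 83.2 CPM (n = 6), in mice labelled Tbx5 mutant. All directions are therefore relative to the labels.

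The promoter of Cpne5 is shown beside those of Cpne8 and Cpne9, since these 3 genes have the most similar coding sequences of the family and very different levels in the control right atrium. Coding identity was 76.6% between Cpne5 and Cpne9, 73.7% between Cpne5 and Cpne8 and 72.2% between Cpne8 and Cpne9, in a range of 63.1% to 76.6% over the 36 copine pairs. The windows run from 250 bases before to 50 bases after the RefSeq start, 5′ to 3′ on the strand of the gene, in GRCm38.p6. They lie at chr17:29237741-29238040 on the reverse strand for Cpne5, at chr15:90679339-90679638 on the reverse strand for Cpne8 and at chr6:113282057-113282356 on the forward strand for Cpne9. Capitals mark each CG dinucleotide.
Cpne5: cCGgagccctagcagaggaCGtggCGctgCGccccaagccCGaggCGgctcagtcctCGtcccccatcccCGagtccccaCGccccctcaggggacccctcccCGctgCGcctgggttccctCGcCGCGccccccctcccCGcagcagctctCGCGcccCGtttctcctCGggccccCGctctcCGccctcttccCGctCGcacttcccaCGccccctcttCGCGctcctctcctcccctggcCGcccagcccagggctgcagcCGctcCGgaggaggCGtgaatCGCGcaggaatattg
Cpne8: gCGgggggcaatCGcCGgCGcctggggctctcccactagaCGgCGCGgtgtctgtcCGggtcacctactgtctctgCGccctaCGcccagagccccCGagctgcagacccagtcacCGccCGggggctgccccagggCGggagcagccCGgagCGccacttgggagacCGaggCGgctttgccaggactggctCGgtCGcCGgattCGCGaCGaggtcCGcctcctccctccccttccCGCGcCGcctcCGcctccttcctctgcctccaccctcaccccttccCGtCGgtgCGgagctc
Cpne9: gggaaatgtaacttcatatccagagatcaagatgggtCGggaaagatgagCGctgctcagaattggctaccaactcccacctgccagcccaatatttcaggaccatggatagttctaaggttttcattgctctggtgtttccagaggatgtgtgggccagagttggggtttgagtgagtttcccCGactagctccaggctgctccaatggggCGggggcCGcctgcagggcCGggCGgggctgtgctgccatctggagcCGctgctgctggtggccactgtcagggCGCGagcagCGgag
The Cpne5 window held 32 CG dinucleotides and was 74.7% G or C, the Cpne8 window 32 and 73.7%, and the Cpne9 window 11 and 58.7%. Over the 32851 RefSeq windows of this length the medians were 7 CG dinucleotides and 52.7%, and 95.8% of windows had a lower G and C content than that of Cpne5. The RefSeq start of Cpne5 lies 377 bases inside the outermost start of the gene in GENCODE M21.

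A window was in the RefSeq table for 6 of the 9 copines (Cpne1, Cpne2, Cpne4, Cpne5, Cpne8 and Cpne9), and none was found for Cpne3, Cpne6 and Cpne7. The T-box core AGGTGT, searched on both strands, was in 4514 of the 32851 windows (13.7%), and the longer form AGGTGTGA, which contains the core, in 419 (1.28%). Neither was in a copine window, Cpne5 included. That says only that these letters are not in these 300 bases.

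Cpne5 was well read in every control mouse and low in every Tbx5 mutant mouse, with 4 to 16 reads beside a floor of 3. Control M1 had 290 reads, M2 had 314, F1 had 393 and F2 had 612. The mutant mice had 4 (F1), 10 (F2), 5 (F3), 16 (M1), 12 (M2) and 4 (M3) reads. The lowest control mouse thus had more reads than all 6 mutant mice put together. Scaled to the library, Cpne5 stood at 41.4, 51.9, 61.5 and 82.7 CPM in control M1, M2, F1 and F2, with a mean of 59.4 ± 17.6 CPM (SD, n = 4). In the mutant mice it ran from 0.630 to 2.74 CPM with a median of 1.21 and a mean of 1.37 ± 0.787 CPM (SD, n = 6). The groups did not overlap, and the mutant mean was 2.31% of the control mean, a ratio of 43.3.

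On the log2 scale the fitted difference of Cpne5 was -5.42, with a standard error of 0.27. No test is given for it, since this difference chose the family. Cpne5 had rank 4 among the 937 genes called lower, after Sfrp5 at -5.67, a secreted Wnt antagonist, and before Bmp3 at -4.85, a secreted member of the BMP family. Sfrp5 had a standard error of 0.902, and its order with Cpne5 depended on the control mice. Without control F1 Sfrp5 was at -5.29 and Cpne5 at -5.41, and without control F2 they were at -5.04 and -5.21. Called here means an adjusted p under 0.05, more than a 1.5-fold difference and a control mean over 1 in the authors' normalized signal, and 7.16% of the 13084 genes tested were called lower by this rule. Without mutant mice M2 and M3 the fitted difference was -5.48. Leaving out each library in turn gave values from -5.71 to -5.21.

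Markers of other cell types moved between the groups as well, in a comparison where 7.16% of all genes tested were called lower and 8.5% higher. The summed level of 7 atrial cardiomyocyte genes was 65116 to 77951 CPM in control and 50247 to 64418 CPM in Tbx5 mutant mice, with 3 members called lower and 1 higher. The 5 fibroblast genes summed to 3205 to 4248 CPM in control and 5061 to 7732 CPM in mutant mice (2 called higher), and 6 Schwann cell and neuron genes to 38.7 to 50.4 and 14.7 to 20.7 CPM (2 tested, 1 called lower). The summed levels of 4 smooth muscle and pericyte genes were 226 to 280 and 296 to 637 CPM (1 called higher), and those of 4 leukocyte genes 124 to 182 and 200 to 278 CPM (2 tested, 2 called higher). Mutant M2 gave the upper end of the fibroblast and leukocyte sums, and without it the mutant maxima were 6113 and 255 CPM. Sums of the endothelial, epicardial, ventricular, adipocyte and erythroid genes overlapped between the groups. Of 2 ventricular genes tested 1 was called higher, as was the 1 erythroid gene tested, and no adipocyte gene was tested. In these lists the erythroid gene Hba-a1 alone was at 0 in all libraries. The part of cell composition in the copine differences was not tested, and in bulk tissue fewer cells of a type and less RNA per cell cannot be told apart.

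The other copines ranged from no reads to the highest level of the family. With all 9 genes on 1 axis, the groups were separate at Cpne5, which chose the family, and overlapped at the other 8 (the plot of copine reads in each library). Overlap was the usual outcome over all genes tested, where 11% had every mutant mouse below every control mouse and 11.7% above. Cpne4, Cpne6, Cpne7 and Cpne9 had at most 13 reads in any library, which leaves little room for separate groups.

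**Figure D1:**
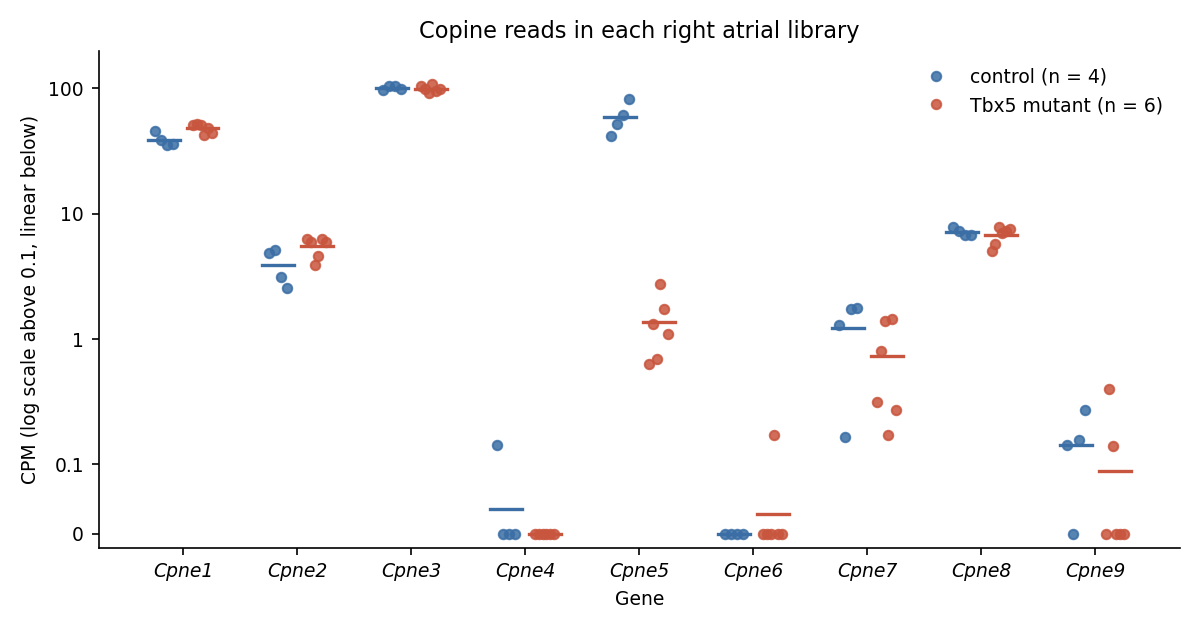
CPM of the 9 copine genes in each right atrial library, on an axis that is logarithmic above 0.1 and linear below, with control mice in blue (n = 4), Tbx5 mutant mice in red (n = 6) and the group mean as a line. The Cpne5 points lie between 41.4 and 82.7 CPM in control and between 0.630 and 2.74 CPM in mutant mice. The groups overlap at the other 8 genes, as they do for most genes tested (11% separate with the mutant mice lower, 11.7% higher).

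Cpne3, which has been linked to ErbB2 signalling and cell migration, was the copine with the most reads. It was at 97.1, 103.9, 103.9 and 98.4 CPM in control M1, M2, F1 and F2. In mutant mice it ran from 91.3 to 109.2 CPM with a median of 98.9. The mutant values lie on both sides of the control values. Means were 100.8 ± 3.59 and 99.7 ± 6.65 CPM, and the log2 difference was -0.02 (95% interval -0.17 to 0.14, adjusted p = 0.897, from the quasi-likelihood test of edgeR adjusted over all genes by Benjamini-Hochberg). The sign of this small difference turned with the scaling or with the libraries used, for example to 0.02 with upper-quartile scaling.

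Cpne1, a broadly expressed member, was modestly higher in Tbx5 mutant mice. It was at 45.6, 39.0, 35.2 and 35.9 CPM in control M1, M2, F1 and F2. In mutant mice it ran from 42.3 to 51.6 CPM with a median of 49.8. Control M1 exceeded mutant M1 and M3, so the groups overlapped. Means were 38.9 ± 4.75 and 48.1 ± 3.94 CPM, a log2 difference of 0.31 with a standard error of 0.10 (edgeR, adjusted p = 0.0310). The fold stayed under 1.5, so Cpne1 was not called. At any fold, 16.3% of all genes tested were higher with an adjusted p under 0.05. The adjusted p was 0.0974 with replicate label as a block (edgeR). It was between 0.0509 and 0.0977 when control M2, F1 or F2 or mutant F1, F2 or F3 was left out (edgeR in each case). The block rests on labels that the sex-linked reads of the control mice contradict. It also leaves mutant F3 and M3 without a control partner, so the genotype difference then rests on fewer mice. A weaker p-value with the block may reflect that loss alone, here and for the genes below.

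Part of the annotated Cpne1 sequence is shared with other genes of its locus. In GENCODE M21 Cpne1 (chr2:156071842-156111965, reverse strand) shares 404 exon bases (8.96% of its exons) with Rbm12, an RNA-binding protein gene on the same strand, and 158 of its 3443 stretches of 50 bases also occur in Rbm12. It shares 83.3% of its exon bases with Gm28036, an overlapping gene that has no row in the table used here. Rbm12 was at 43.6 ± 4.08 and 42.3 ± 3.38 CPM, with a log2 difference of -0.05 (edgeR, adjusted p = 0.738). How reads over shared bases were assigned was not tested.

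Cpne2 and Cpne8 were low and their groups overlapped. Cpne2 was at 4.85, 5.12, 3.13 and 2.57 CPM in control M1, M2, F1 and F2, and ran from 3.90 to 6.30 CPM with a median of 5.98 in mutant mice. The control mice labelled female were the lowest of the 10. Means were 3.92 ± 1.26 and 5.50 ± 1.00 CPM, a log2 difference of 0.49 with a standard error of 0.23 that missed the threshold (edgeR, adjusted p = 0.120). Cpne8 was at 7.84, 7.27, 6.73 and 6.76 CPM in control M1, M2, F1 and F2, and ran from 5.04 to 7.79 CPM with a median of 7.14 in mutant mice. Of the 6 mutant mice, 4 had Cpne8 levels within the control range. The log2 difference was -0.09 (95% interval -0.40 to 0.22, adjusted p = 0.685 by edgeR).

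Cpne7 was close to the limit of counting. Its reads numbered 9, 1, 11 and 13 in control M1, M2, F1 and F2 and 1 to 10 in mutant mice, so the groups overlapped over nearly their whole range. Cpne9, the closest relative of Cpne5 by coding sequence, had 0 to 2 reads in control and 0 to 3 in mutant mice. Cpne4 had 1 read in all, in control M1, and Cpne6 had 1 read in all, in mutant M1. A count of 0 allows up to 3 counts, which is 0.405 to 0.495 CPM in control and 0.399 to 0.815 CPM in mutant libraries and covers counting error only. At this depth no fold is given for Cpne4, Cpne6 and Cpne9.

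In total 5 of the 9 copines passed the expression filter of edgeR (Cpne1, Cpne2, Cpne3, Cpne5 and Cpne8), and Cpne4, Cpne6, Cpne7 and Cpne9 did not. In a fit of 18798 genes without the filter, the adjusted p of these 4 genes was 0.386, 0.467, 0.420 and 0.798 (edgeR). With so few reads these values say little about whether the 4 genes differ between the groups. One copine, Cpne5, was called lower and none was called higher, where 8.5% of all genes tested were called higher. The count of 1 follows from the choice of the family. Non-overlapping groups were found for Cpne5 among the 9 copines, beside 11% of all genes tested with every mutant mouse below every control mouse and 11.7% with every mutant mouse above.

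Levels of different genes were compared per kilobase of the longest annotated transcript. In control mice the order was Cpne3 at 17.9 ± 0.636 CPM per kilobase, Cpne1 at 11.2 ± 1.36, Cpne5 at 7.90 ± 2.34, Cpne8 at 2.12 ± 0.156, Cpne2 at 1.67 ± 0.538 and Cpne7 at 0.348 ± 0.210 (SD, n = 4), with Cpne9, Cpne4 and Cpne6 at 0.0652 or less in each control mouse. The values of neighbours in this order overlapped between Cpne1 and Cpne5, between Cpne8 and Cpne2 and among Cpne7, Cpne9, Cpne4 and Cpne6. Cpne3 was above Cpne1 in each control mouse, and Cpne5 was above Cpne8 in each.

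In Tbx5 mutant mice Cpne3 (17.7 ± 1.18 CPM per kilobase) and Cpne1 (13.8 ± 1.13) kept ranks 1 and 2. Cpne2 at 2.35 ± 0.428 and Cpne8 at 2.00 ± 0.330 followed, with overlapping values. Cpne5 stood at 0.182 ± 0.105 CPM per kilobase (SD, n = 6), in rank 6 after Cpne7 at 0.207 ± 0.163, and the values of the latter pair overlapped. The longest transcript of Cpne5 has 7517 bases and its longest coding transcript 5708. With the latter the Cpne5 levels were 10.4 ± 3.08 and 0.240 ± 0.138 CPM per kilobase, and its ranks were the same.

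**Figure D2:**
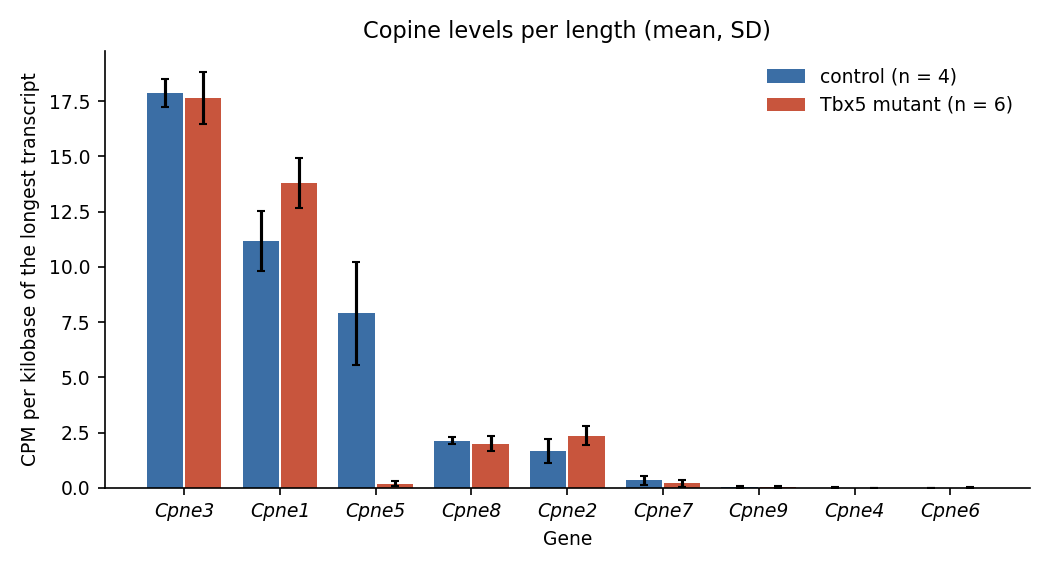
Bars give the mean CPM per kilobase of the longest annotated transcript for each copine, in the order of the control mean, with control in blue (n = 4), Tbx5 mutant in red (n = 6) and the SD over mice as error bars. Cpne5 drops from 7.90 to 0.182 CPM per kilobase beside 17.9 and 17.7 for Cpne3 and 11.2 and 13.8 for Cpne1.

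Shared sequence was measured at about the length of a read. None of the 5659 stretches of 50 bases in the coding transcript of Cpne5 occurred in another gene of the table. The same held for 7 of the 9 copines in all, the exceptions being Cpne1 and Cpne3, and no stretch was shared between any pair of copines. Cpne5 (ENSMUSG00000024008.16) lies at chr17:29155556-29238167 on the reverse strand in GENCODE M21, with 21 exons in its coding transcript and 593 codons. It overlaps the opposite-strand locus AC162182.2 over 146 exon bases (1.08%), and that locus has no row in the table used here. Without strand in the counting, reads there cannot be told apart.

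Genes beside the copines were described next, taking the nearest protein-coding gene on each side. Cpne5 lies between Rab44, a large Rab GTPase gene 6576 bases away, and Ppil1, a cyclophilin of the spliceosome 12636 bases away. Rab44 had 0 to 5 reads in any library and was not tested. Ppil1 was at 27.7 ± 3.60 CPM in control and 20.4 ± 2.14 CPM in mutant mice. Its groups did not overlap, as for the 11% of all genes tested with every mutant mouse lower. Its log2 difference of -0.45 (standard error 0.11, adjusted p = 0.00811 by edgeR) was under the fold of 1.5, so Ppil1 was not called.

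Among the 18 neighbours of the 9 copines, 16 were in the table and 10 were tested. The 1 call in each direction among these 10 is near the share over all genes tested (8.5% higher, 7.16% lower). The gene called higher was Nlrc5 beside Cpne2, a regulator of MHC class I genes, at 4.35 ± 0.765 and 10.5 ± 3.91 CPM (log2 difference 1.25, edgeR adjusted p = 0.00354). The gene called lower was Kif21a beside Cpne8, a kinesin motor, at 46.8 ± 6.60 and 31.0 ± 7.45 CPM (log2 difference -0.59, edgeR adjusted p = 0.0117). Alg10b on the other side of Cpne8, a glucosyltransferase of N-glycan synthesis, was lower by -0.24 on the log2 scale, and Rpl13 beside Cpne7, a ribosomal protein, higher by 0.37, neither past the fold of 1.5 (edgeR adjusted p = 0.0416 and 0.0452). Both missed the threshold with the replicate block (edgeR adjusted p = 0.127 and 0.109). Alg10b also missed it without any one of control M1, M2 and F2 and mutant F2, M2 and M3, and Rpl13 without any one of the 4 control mice and mutant F2, M2 and M3. The call of Kif21a rested on a difference close to the 1.5-fold limit. It was lost with upper-quartile scaling (log2 difference -0.56), with the replicate block (-0.52), and without any one of control M1 and mutant F2, F3, M2 and M3 (-0.56 to -0.50). Besides Ppil1, the groups did not overlap for Alg10b (mutant mice lower) and Nlrc5 (mutant mice higher). Over all genes tested, 11% were separate with the mutant mice lower and 11.7% with them higher. The median log2 difference of the 10 tested neighbours was -0.02, beside a median of -0.00498 over all genes tested.

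**Figure D3:**
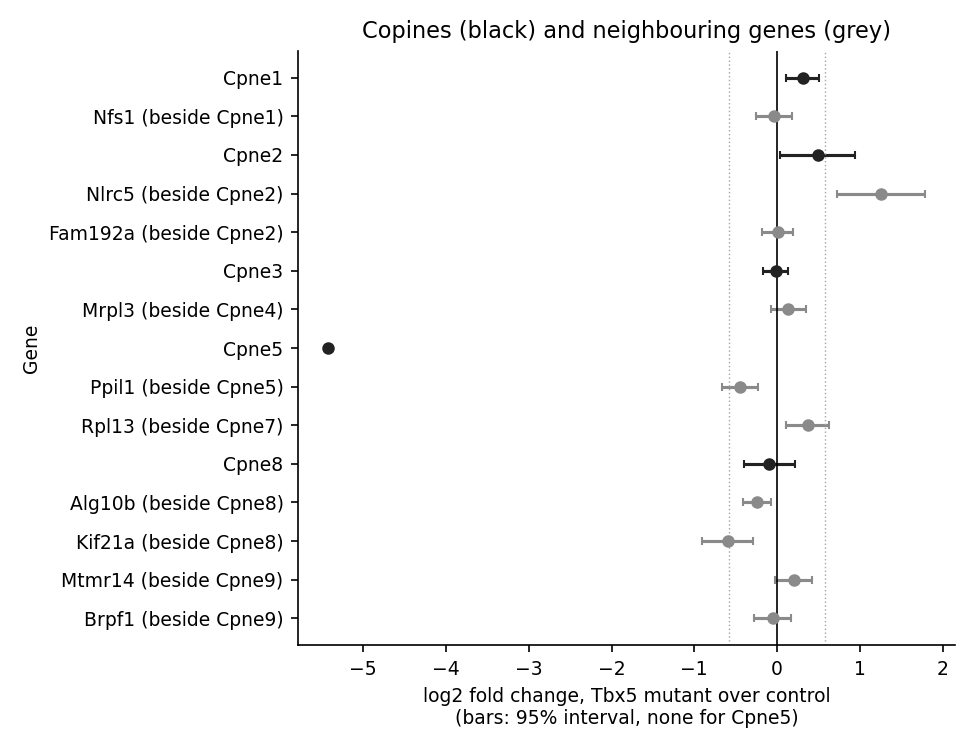
Points give the fitted log2 fold change, Tbx5 mutant over control, of the 5 tested copines (black) and of the 10 tested neighbouring genes (grey). Bars are approximate 95% intervals from the normal distribution, none for Cpne5, and are narrower than the quasi-likelihood test implies. Dotted lines mark a fold of 1.5 in either direction. Cpne5 lies at -5.42, and the other points lie between -0.59 and 1.25.

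Sex was examined as labelled and with the control labels swapped, since their sex-linked reads contradict them. Cpne5 was at 72.1 ± 15.0 CPM in the 2 control mice labelled female and 46.6 ± 7.42 in the 2 labelled male, and at 0.885 ± 0.387 in the 3 mutant mice labelled female and 1.86 ± 0.831 in the 3 labelled male. The genotype difference of Cpne5 on the log2 scale was 1.72 less negative in labelled males (standard error 0.49, adjusted p = 0.197 by edgeR for the interaction) and 0.46 less negative with the control labels exchanged (adjusted p = 0.851). No copine of the 5 tested passed an adjusted p under 0.05 in either interaction by edgeR, or by DESeq2 with the labels as given. At an unadjusted p under 0.05, 2 (Cpne1 and Cpne5) passed with the labels as given and 0 with the labels exchanged. Over all genes tested, 0.29% and 0.00764% passed the adjusted threshold.

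Within the Tbx5 mutant mice, a comparison that did not choose the family, Cpne5 was lower in mice labelled female, by -1.09 on the log2 scale (standard error 0.44), which missed the threshold (edgeR, adjusted p = 0.518). Mutant F2, at 1.33 CPM, lay above mutant M3, at 1.09 CPM, so the labelled sexes overlapped. The other 4 tested copines had an adjusted p of at least 0.683 (edgeR). No copine passed by edgeR or DESeq2, 1 of 5 had an unadjusted p under 0.05 in edgeR, and 0.0611% of all genes tested passed the adjusted threshold.

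The genes whose profile over the 10 libraries was most like that of Cpne5 were found by the mean absolute difference of log2 CPM, each gene centred on its own mean. They were 1700055N04Rik (0.485), Gja5 (0.486), Gm1078 (0.525), Sbk2 (0.605) and Cilp2 (0.660). Gja5 encodes connexin 40, the gap junction protein of atrial muscle and the fast conduction system, Sbk2 a serine/threonine kinase and Cilp2 a matrix protein. Gja5 was at 208.9, 255.7, 238.1 and 177.3 CPM in control M1, M2, F1 and F2 and ran from 8.21 to 15.7 CPM in mutant mice. Its highest control mouse, M2, was not that of Cpne5, F2.

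The other nearest genes also had low values in all 6 mutant mice. Gm1078 was at 490 ± 30.8 and 8.80 ± 6.25 CPM, Sbk2 at 197 ± 26.4 and 12.5 ± 4.63 CPM, and Cilp2 at 119 ± 14.5 and 6.93 ± 1.23 CPM. 1700055N04Rik was at 17.1 ± 3.58 CPM in control mice and had 0 to 2 reads in mutant mice. These 5 profiles share the genotype difference with Cpne5. When each group was centred on its own mean, 0 of these 5 genes were among the nearest 5.

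**Figure D4:**
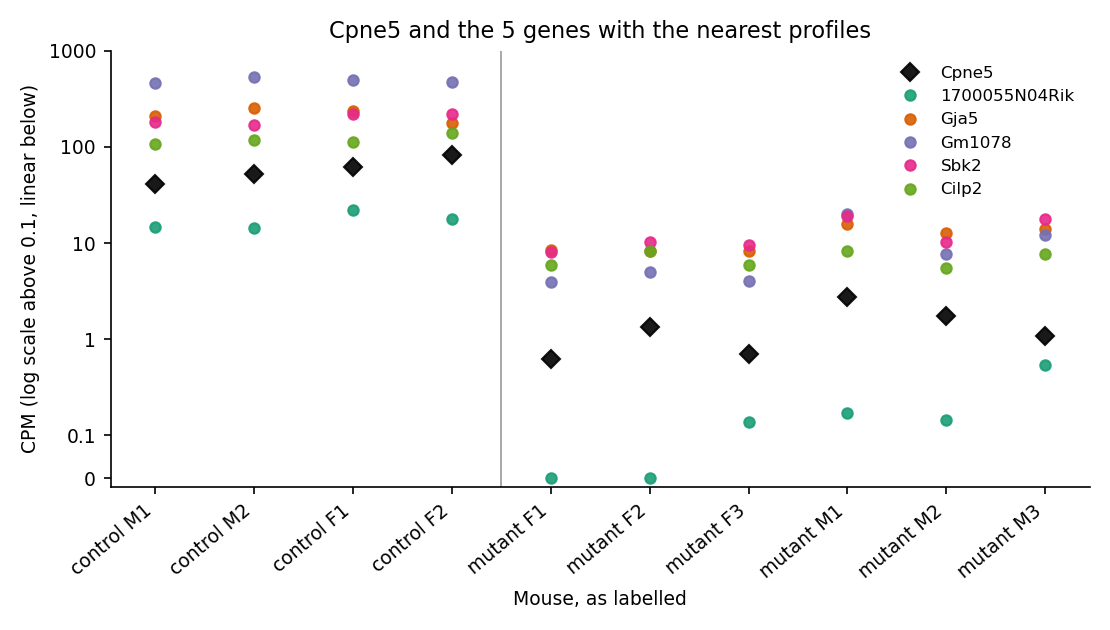
CPM of Cpne5 (black diamonds) and of the 5 genes with the nearest profiles (coloured circles) in each of the 10 mice as labelled, on an axis that is logarithmic above 0.1 and linear below, with a grey line between control and Tbx5 mutant mice. All 6 genes are high in the 4 control mice and low in the 6 mutant mice, where Cpne5 runs from 0.630 to 2.74 CPM and Gja5 from 8.21 to 15.7 CPM.

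Other lists set Cpne5 beside C2-domain proteins, ferlins, annexins and conduction genes. Of 37 synaptotagmins and other C2-domain proteins, some of which trigger vesicle fusion or transmit calcium signals, 20 were tested. Of these, 3 were called lower, 2 higher and 15 were not called, with a median log2 difference of -0.00568. Over all genes tested, 7.16% were called lower and 8.5% higher, with a median of -0.00498. Doc2g fell from 519 ± 108.2 to 109 ± 18.5 CPM (log2 difference -2.25), Pla2g4b, a cytosolic phospholipase, from 6.01 ± 3.57 to 2.10 ± 1.39 CPM (-1.44), and Syt7, a calcium sensor of exocytosis, from 52.9 ± 2.00 to 25.5 ± 5.52 CPM (-1.05). Their edgeR adjusted p was 2.15e-07, 0.0301 and 0.000114. Pla2g4b lost its call with the replicate block (edgeR adjusted p = 0.0710) and without any one of control M1 and M2 and mutant F2, F3 and M2 (edgeR adjusted p between 0.0504 and 0.130).

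Of 6 ferlins, large C2-domain proteins of membrane repair, 2 were tested and 1 was called higher, Dysf (dysferlin), at 48.1 ± 2.77 and 94.1 ± 24.4 CPM with a log2 difference of 0.97, where 8.5% of all genes tested were called higher. Annexins bind membranes with calcium through a different fold. Of the 12 annexins, 10 were tested, 4 were called higher and 1 lower, with a median log2 difference of 0.40, beside 8.5% of all genes tested called higher and 7.16% lower. Anxa3 rose by 0.95, Anxa2 by 0.92 and Anxa5 by 0.83 on the log2 scale, with edgeR adjusted p of 0.000580, 8.66e-05 and 0.000150.

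Of 18 genes of the cardiac conduction system, 14 were tested, 5 were called lower, 1 higher and 8 were not called, with a median log2 difference of -0.19, beside the same 7.16% lower and 8.5% higher over all genes. Gja5 fell by 4.31 and Cntn2, a cell adhesion protein of the conduction system, by 2.31 on the log2 scale. Kcne1, a potassium channel subunit, rose by 3.16, from 1.26 ± 1.14 to 11.1 ± 2.80 CPM. Their edgeR adjusted p was 4.01e-09, 6.11e-05 and 8.17e-05.

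**Figure D5:**
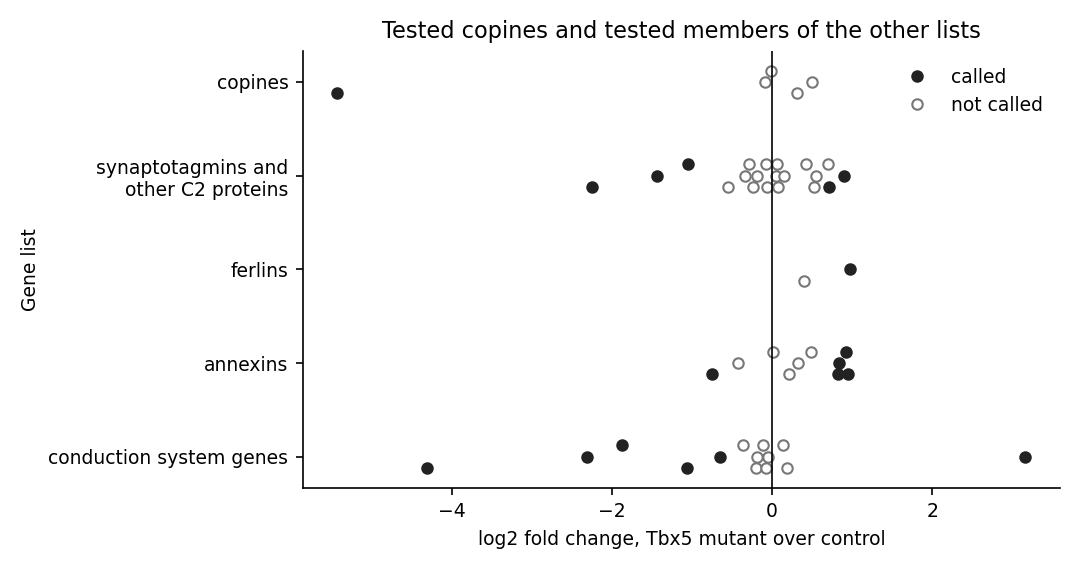
Points give the fitted log2 fold change, Tbx5 mutant over control, of the tested members of the copine family and of the 4 other gene lists, filled where called and open where not, with a small vertical offset for legibility. Cpne5, which chose the family, is at -5.42, and Gja5 at -4.31 and Kcne1 at 3.16 lie at the ends of the conduction system list.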

How the data were processed

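The authors deposited 1 table with the reads counted on each gene in each library (counts, whole numbers without normalization). The authors also deposited a normalized signal, the counts divided by 1 DESeq2 size factor per library, which was used here only for the minimum control mean of 1. The deposited log2 fold changes, Wald scores, p-values, adjusted p-values and linear fold ratios are the authors' own comparison and were not used. The submitters' processing notes name FastQC, TopHat2 2.0.11, featureCounts, DESeq2 and the build mm10, without roles or settings.

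The counts went into edgeR 4.0.16 (R 4.3.3) after its filterByExpr and TMM steps, with genotype label as the single term of a quasi-likelihood fit to the 10 libraries and Benjamini-Hochberg adjustment. Values are CPM with the SD over mice. Depth was 5703775 to 7095141 counts per library, and a count of 0 allows up to 3. The labels do not state whether replicates were littermates or were handled together. The p-values set each difference against the spread between these mice. They could be too small if mice of a group shared litters or handling. No repeated library was found (chi-square per degree of freedom at least 3.78 over 21 within-group pairs). Mice with the same replicate label showed no greater likeness (mean correlation of deviations 0.00256, range -0.0387 to 0.0409, over 4 pairs). The 20 other pairs had a mean of -0.000662 and a range of -0.295 to 0.281. With 4 pairs and doubtful control labels, a pairing is not excluded. The fit was tested on simulated data before use. DESeq2 1.42.0 was an alternative.

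Coordinates, lengths and neighbours came from GENCODE M21 (GRCm38) and promoters from RefSeq (GRCm38.p6). The genes named were Tbx5, the 9 copines, their nearest protein-coding neighbours, the 5 profiles nearest to Cpne5 (prior count 2) and at most 3 called genes per list. Sfrp5, Bmp3, Rbm12, Gm28036, AC162182.2 and the sex, ribosomal and adipocyte genes were added after their values were seen. The members and lists were chosen with earlier results of these data known.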

Additional observations from a re-analysis of the deposited data

Results flagged for a closer look

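In 80 groups of values (control or Tbx5 mutant mice, for the genes named), 8 had a single mouse far from the rest by Dixon's criterion. For continuous values chance gives about 1 in 20, or 4. That figure does not hold here, since a group with 1 read in all is flagged by construction, as for Cpne4, Cpne6 and Nrl. Of the 8 groups flagged, 3 were copines with almost no reads. Cpne4 was at 0.143 CPM in control M1 and 0 in the other control mice, from 1 read. Cpne6 was at 0.171 CPM in mutant M1 and 0 in the other mutant mice, from 1 read. Cpne9 was at 0.399 CPM in mutant F2, from 3 reads, with the next mutant mouse at 0.139 CPM.

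The others were genes beside the copines or near Cpne5 in profile. 1700055N04Rik was at 0.544 CPM in mutant M3, from 2 reads in the library with the most Rn45s. Spag4 was at 0.974 CPM in mutant F3, from 7 reads. Mrpl3, beside Cpne4, was at 63.6 CPM in mutant F2, with the next mutant mouse at 54.1 CPM. Nrl, beside Cpne6, was at 0.143 CPM in control M1 and at 0.272 CPM in mutant M3, from 1 read each.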

How the results depend on the processing

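Cpne5 stayed lower and called under each alternative run. Since it chose the family and its groups lie far apart, this outcome was close to fixed and adds no support. No other copine was called, except that without a fold threshold Cpne1 joined it and 2 copines were called. Without a fold threshold 4096 genes were called in all (1967 lower, 2129 higher). With a fold over 2 there were 906 (367 lower, 539 higher), and 8 calls in the other lists. The log2 difference of Cpne1 was 0.32 with a replicate block (edgeR adjusted p = 0.0974) and 0.26 to 0.40 over the libraries left out in turn, past the threshold in some and not in others, as given above. The log2 difference of Cpne3 was 0.0153 with upper-quartile scaling, 0.0172 with the replicate block, 0.0119 without mutant M2 and M3, an alternative chosen after seeing the data, and -0.0327 to 0.0202 over the libraries left out in turn. The cause of these small turns was not tested. Rbm12 ranged from -0.0912 to 0.0190 with 1 library left out. The replicate block, with the limits given above, changed no copine call. Alg10b, Rpl13, Pla2g4b and Kif21a lost significance or the call under the alternatives named above, and with a fold over 2 each named gene with a log2 difference under 1 in size lost its call (Dysf, Anxa3, Anxa2, Anxa5, Kif21a and Tbx5). With mean transcript lengths the control levels were 38.5 for Cpne3, 29.5 for Cpne1 and 22.5 CPM per kilobase for Cpne5, in the same order. With group means removed, 0 of the 5 genes nearest to Cpne5 were the same. The alternatives included DESeq2, sex as a covariate, no filter and counts without Rn45s. Depth limits Cpne4, Cpne6, Cpne7 and Cpne9, for which a modest difference was not detectable.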
